A study of Mus musculus with 12 samples.

Results

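The mRNAs described here encode 6 subunits of eukaryotic translation initiation factor 3 (eIF3): Eif3a, Eif3e, Eif3f, Eif3h, Eif3k and Eif3l. They were followed through the LARP1 binding regions that overlapped one of their annotated exons on the same strand by at least 1 nt, and 22 of the 5556 regions in the deposited lists did so, 11 of 3189 in control cells and 11 of 2367 in Rnmt cKO cells. The regions came from enhanced crosslinking immunoprecipitation (eCLIP), in which ultraviolet light fixes a protein to the RNA it touches and the ends of the sequenced cDNAs mark the crosslinked base. Cells labelled as naive CD4 T cells were isolated from lymph nodes of female mice with a magnetic kit for CD4 T cells as a whole and exposed to 400 mJ of 254 nm light. Controls carried the genotype Rnmt fl/fl CD4cre - and the Rnmt cKO mice Rnmt fl/fl CD4cre +, so that loxP-flanked Rnmt alleles were shared by both genotypes and the Cre transgene only by the latter. The Cd4 promoter drives this Cre from the stage at which thymocytes carry both CD4 and CD8, hence Rnmt was also lost from CD8 T cells and the cells studied had passed part of their development without it. The age of the mice and the number pooled per library are not given in the sources used here. The series held 12 libraries, of which the lists of 2 were used, 1 LARP1 immunoprecipitation (IP) of each genotype. No difference between genotypes therefore has a replicate check, and none was tested.

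eIF3 is the largest of the initiation factors. It binds the small ribosomal subunit, helps to recruit the initiator tRNA and the mRNA, and keeps the ribosomal subunits apart until a start codon is found. Its core is built from subunits with a PCI or an MPN domain. The PCI domain is named after the proteasome lid, the COP9 signalosome and eIF3, the complexes that share this architecture. Eif3a, Eif3e, Eif3k and Eif3l are PCI subunits and Eif3f and Eif3h are the MPN subunits. LARP1 is an RNA-binding protein that holds the cap and the first bases of mRNAs with a terminal oligopyrimidine (TOP) motif, a C at the transcription start followed by an unbroken run of C and T. TOP motifs are known from mRNAs for ribosomal proteins and translation factors, and their translation follows growth signals through mTOR. RNMT methylates the cap guanosine, the structure that LARP1 contacts beside the motif.

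Each of the 6 mRNAs had its highest-scoring region at its 5' end in both lists, and each of these regions lay in or directly beside a pyrimidine run. The 30 nt around the highest-scoring crosslink site (the peak) are shown to place the contact within the run. The pyrimidine run, the unbroken C and T stretch of any length that holds the peak or ends at the base before it, is in capitals. The peak is base 15 of each line. Among all 5'UTR regions of protein-coding genes whose peak could be placed, 96.8% in control and 96.4% in Rnmt cKO had such a run. Its presence at the 6 mRNAs is therefore a description and not a result about them. Sequences are the mRNA strand on GRCm38, taken from GENCODE M21 transcripts and, upstream of annotated exons of Eif3f and Eif3a, from the RefSeq GRCm38.p6 promoter table, in which 4 of the 6 genes were matched.
Eif3e: aacaagcgCTCCTTTCCCCCggcaagatgg
Eif3h: cctcacgCTTCTCTTTCTTCCTgtctggct
Eif3f: taggCTCTCTCTCTTTCTCggcaagatggc
Eif3a: cgtggTTCCTTCCTTTCCgtctctggccgg
Eif3k: tcttccggTCCTCTagtgctaagcaccgtg
Eif3l: ttcttccgCTCTCTCCCacgggcttctgga
These stretches are chr15:43282689-43282718 on the minus strand for Eif3e, chr15:51865464-51865493 on the minus strand for Eif3h, chr7:108934407-108934436 on the plus strand for Eif3f, chr19:60790640-60790669 on the minus strand for Eif3a (around the control peak), chr7:28981778-28981807 on the minus strand for Eif3k and chr15:79075219-79075248 on the plus strand for Eif3l. The runs were 6 to 15 nt long, with a median of 12.5 nt. Those of Eif3e, Eif3h, Eif3f and Eif3a spanned 12 to 15 nt, and those of Eif3k and Eif3l 6 and 9 nt. The peak was a T in Eif3e, Eif3h, Eif3f and Eif3a, a C in Eif3l, and in Eif3k the A that followed the last base of the run.

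The name TOP start was only partly borne out by the annotated starts. With a TOP start defined as a C at the first base of an annotated transcript followed by at least 4 pyrimidines, 2 of the 6 genes had one, against 1868 of 21768 protein-coding genes outside chromosome Y (8.58%, 95% Wilson interval 8.22 to 8.96%). They were Eif3f, whose coding transcript Eif3f-201 opens with 9 pyrimidines, and Eif3a, whose retained-intron transcripts Eif3a-202 and Eif3a-203 open with 7. When the C could lie within 5 nt of the annotated start, Eif3e and Eif3k were added and the count was 4. The stretch matched in each of these added genes was not its crosslinked run. In Eif3e, Eif3k, Eif3h and Eif3l the crosslinked run began inside the annotated coding transcript, 9, 15, 37 and 48 nt after its first base. In Eif3f the run began 6 nt upstream of the annotated first base and in Eif3a 21 nt upstream of that of the coding transcript Eif3a-201. The lists hold no measurement of where transcription began in these cells, so that a contact at the first bases of the mRNA and one inside its 5'UTR cannot be told apart for the first 4 genes.

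**Figure D1:**
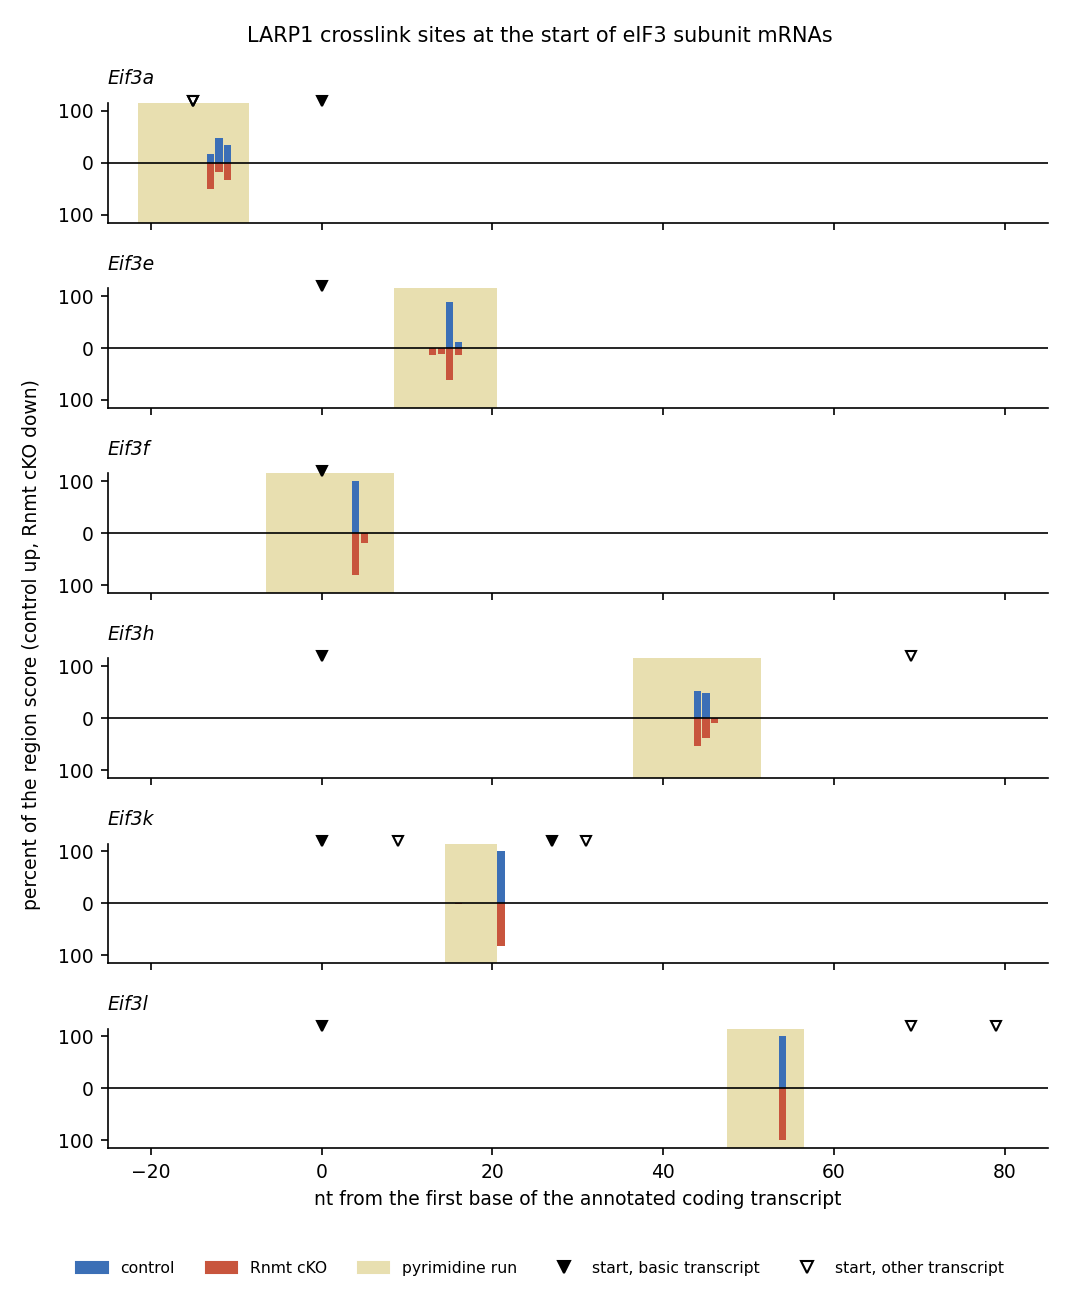
Crosslink sites in the region at the 5' end of each eIF3 mRNA, by distance in nt from the first base of its coding transcript (Eif3a-201, Eif3e-201 and likewise for the others). Bars give each site's percent of the region score, control upward and Rnmt cKO downward, shading marks the pyrimidine run, and triangles mark annotated transcript starts within the plotted range, filled for transcripts that GENCODE tags as basic. The run was drawn from the peak. The bars fall in the run in 5 genes and up to the base after it in Eif3k. Run and bars both lie wholly upstream of the coding transcript only in Eif3a. A pair of inner Eif3k sites in Rnmt cKO, whose base could not be placed, is left out.

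All 6 mRNAs had an exonic region and a region within 50 nt of an annotated transcript start in both lists. Eif3a and Eif3l were near a start only through transcripts not tagged as basic, and 4 genes remained with basic transcripts alone. Among all protein-coding genes, 2.61% had an exonic region in control and 3.20% in Rnmt cKO, 1.24% and 1.35% had one within 50 nt of a start, and 1.00% had one there in both lists. Since the 6 genes were chosen with earlier results of these data known, their full count is a description and not a result about them. A 5'UTR region was listed for 5 of the 6 in each genotype, against 1.33% of genes in control and 1.50% in Rnmt cKO. The exception was Eif3a, whose region lay outside its coding transcript and counted as a non-coding exon. In control the 11 regions comprised 5 in 5'UTRs, 3 in coding sequence (CDS), 1 in a 3'UTR and 2 in non-coding exons. In Rnmt cKO they comprised 5 in 5'UTRs, 5 in CDS, none in 3'UTRs and 1 in a non-coding exon. No region of the 6 genes overlapped another annotated gene on either strand, and the 4 annotated Eif3 pseudogenes held no region.

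The region score came from a model that the authors' peak caller fitted separately to each library, and scores cannot be set side by side between lists. Regions were therefore ranked within each list from the highest score, and the rank was expressed as a percent of the list (top percent), in which a small value is a high rank. The lists hold no measure of mRNA abundance, and fewer cells of a type and less RNA per cell cannot be told apart in such bulk samples. The median top percent of the 6 start regions was 11.8% in control and 10.7% in Rnmt cKO. The order of these medians turned when regions were ranked by their highest site (11.4% and 12.6%) or by score per site (10.2% and 14.5%). It held among exonic regions alone (19.2% and 13.7%). The lists differed in make-up, with 826 of 3189 regions exonic in control and 1364 of 2367 in Rnmt cKO. Over all 5'UTR regions of protein-coding genes whose peak could be placed, 284 in control and 303 in Rnmt cKO, the median was 20.0% and 25.5%. Those of ribosomal protein genes had a median of 2.18% and 2.45%, and those of all other genes 32.6% and 33.1%. The 6 eIF3 mRNAs thus ranked between the ribosomal protein mRNAs and the remaining 5'UTR-bound mRNAs by their median, with a wide range of 4.48 to 25.3% in control and 4.99 to 50.3% in Rnmt cKO.

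**Figure D2:**
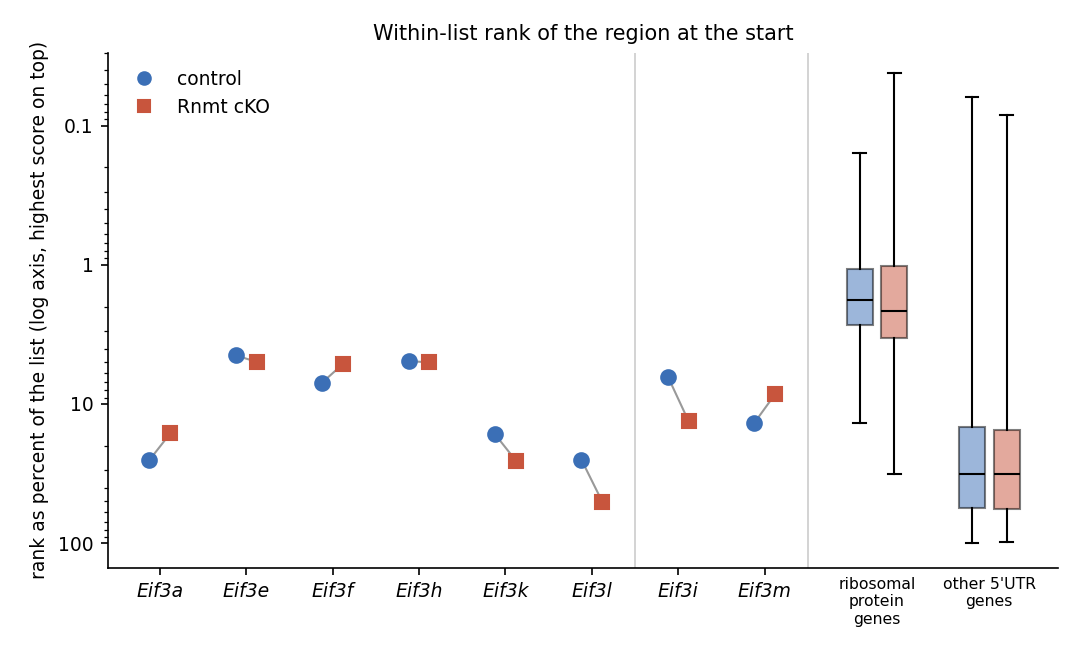
Rank of the start region as a percent of its list, on a log axis with the highest score on top, for the 6 eIF3 mRNAs and for Eif3i and Eif3m (circles control, squares Rnmt cKO). Boxes give the highest 5'UTR region per gene of ribosomal protein genes and of all other genes, with median, quartiles and whiskers to the extremes. Eif3e, Eif3f and Eif3h sit at 4.48 to 7.02% in both lists and Eif3l drops from 25.2% to 50.3%.

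Eif3e, Eif3h and Eif3f formed the upper part of the range. Eif3e encodes a PCI subunit that bridges eIF3 to other parts of the initiation machinery, and its gene lies on chromosome 15. Its start region covered chr15:43282703-43282704 in control and chr15:43282703-43282706 in Rnmt cKO. The score was 265 in control, rank 143 of 3189 or the top 4.48%, and 301 in Rnmt cKO, rank 118 of 2367 or the top 4.99%. The peak was the same base, 43282704, in both lists. It lay 15 nt after the annotated first base and 12 nt before the start codon of a 5'UTR of 27 nt. The peak held 88.4% of the region score in control, where the region had 2 sites, and 62.0% in Rnmt cKO, where it had 4. The 2 additional sites of the Rnmt cKO region lay on the 5' side of the peak, at positions 5 and 6 of the run, and held 13.0% and 12.0% of the score.

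Eif3h, an MPN subunit that pairs with Eif3f in the core, ranked beside Eif3e. Its region was chr15:51865478-51865479 in control and chr15:51865477-51865479 in Rnmt cKO, in exon 1 of 8. The score was 235 in control (rank 157, top 4.92%) and 295 in Rnmt cKO (rank 119, top 5.03%). Its crosslinks spread over neighbouring bases in both lists. The peak at 51865479 held 51.7% in control and 53.8% in Rnmt cKO, and the next base 48.3% and 37.9%. A site at position 10 of the run was listed only for Rnmt cKO and held 8.35% of that score. The peak lay 44 nt inside Eif3h-201 and 22 nt before the start codon of a 5'UTR of 66 nt, at position 8 of the longest of the 6 runs, which it shared in length with Eif3f.

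Eif3f, the other MPN subunit, had a single site in control, at chr7:108934421, and 3 adjacent sites in Rnmt cKO, chr7:108934421-108934423. The score was 149 in control (rank 224, top 7.02%) and 266 in Rnmt cKO (rank 122, top 5.15%). The same T, 4 nt after the annotated start and 11 nt before the start codon, held 100% of the control score and 81.1% of the Rnmt cKO score. Its annotated 5'UTR of 15 nt was the shortest of the 6, and it is the only one of the 6 with a TOP motif at the annotated start of its coding transcript.

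Eif3k, Eif3l and Eif3a ranked lower and moved between the lists. Eif3k and Eif3l are peripheral PCI subunits that bind each other and are dispensable in some organisms. The Eif3k region, at chr7:28981793 in control and chr7:28981793-28981798 in Rnmt cKO, had a score of 39.5 in control (rank 528, top 16.6%) and 28.6 in Rnmt cKO (rank 604, top 25.5%). Its peak, 61 nt before the start codon, was the same A in both lists and held 100% of the score in control and 81.5% in Rnmt cKO. The 4 Rnmt cKO sites extended upstream into the run TCCTCT, where the outermost held 0.809% of the score. Eif3l had a single site in both lists, the C at chr15:79075233, 54 nt inside Eif3l-201 and 27 nt before its start codon. Its score was 23.5 in control (rank 804, top 25.2%) and 8.00 in Rnmt cKO (rank 1191, top 50.3%), just under the median score of that list, 8.14.

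Eif3a, the largest PCI subunit and a scaffold of the complex, had the largest shift of the 6 toward a higher rank in Rnmt cKO. Its region of 3 sites, chr19:60790654-60790656, was identical in extent in both lists. The score was 23.4 in control (rank 806, top 25.3%) and 52.7 in Rnmt cKO (rank 386, top 16.3%). It was also the only one whose peak moved. In control the middle site, 60790655, held 48.9% of the score and its 5' neighbour 17.4%, whereas in Rnmt cKO the 5' site, 60790656, held 49.7% and the middle site 17.4%. The third site, at 60790654, held 33.7% and 32.9%. The region began 2 nt after the start of Eif3a-202 and Eif3a-203 and ended before the first base of Eif3a-201, so it was listed through transcripts that are not annotated as coding.

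The rank shifts were set beside those of every protein-coding gene with a region within 50 nt of a start in both lists. Over these 218 genes the change in top percent, Rnmt cKO minus control, had a median of 0.229 percentage points and quartiles of -2.70 and 2.16. Eif3h (0.104), Eif3e (0.501) and Eif3f (-1.87) lay inside these quartiles. Eif3k changed by 8.96 and Eif3a by -8.97, and 28.9% and 28.4% of the 218 genes had a larger change in either direction. Eif3l changed by 25.1 percentage points toward lower ranks, and 12.4% of the genes had a larger change. With 1 library per genotype these values are positions within these lists only. The 218 genes were also not matched to the eIF3 genes by rank. Ribosomal protein genes had a region near a start in 73 of 87 cases in control and in 77 in Rnmt cKO. Their median top percent there was 1.82% and 2.24%, close to the top of both lists. Whether genes of similar control rank changed as much as Eif3l, Eif3k or Eif3a was not tested. Eif3l and Eif3k ranked higher in control, and Eif3a higher in Rnmt cKO, under every ranking that gave a value in both lists (7, 8 and 8 rankings), whereas the order of the lists turned with the ranking for Eif3e (4 of 9 higher in Rnmt cKO), Eif3h (7 of 9) and Eif3f (7 of 8).

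The number of crosslink sites differed between the lists as it did across the data. The start regions of the 6 mRNAs held 10 sites in control and 18 in Rnmt cKO. Single-site regions made up 8 of the 11 in control and 5 of the 11 in Rnmt cKO, where the whole lists had 82.6% and 54.7%. Of the 5 regions in 5'UTRs, 3 in control and 1 in Rnmt cKO had a single site, against 43.7% and 24.1% of all 5'UTR regions. In Eif3f and Eif3k the region was 1 site in control and 3 or 4 in Rnmt cKO, in Eif3e and Eif3h it widened from 2 sites to 4 and 3, and in Eif3a and Eif3l it kept its 3 sites and its 1 site. Of the start sites whose base could be placed, 9 of 10 in control and 15 of 16 in Rnmt cKO lay inside the pyrimidine run. The exception in each list was the Eif3k peak. Each run was drawn from the peak, so a peak that is C or T lies in it by definition. These counts are therefore a description only. The peak was the same base in both lists in 5 of the 6 genes. Among the 5'UTR regions of all protein-coding genes that were shared between the lists, counted in control, the peak was the same in 110 of 176 (62.5%). For minus-strand regions, among them Eif3a, Eif3e, Eif3h and Eif3k, the site order was itself chosen by how often such peaks coincided. Both counts of matching peaks therefore partly follow from that choice.

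The runs at the eIF3 starts can be read against all 5'UTR regions measured in the same way. The median run at the peak of a 5'UTR region was 8 nt over 284 control regions and 7 nt over 303 Rnmt cKO regions. A run of at least 7 nt was present in 65.5% and 56.4% of them, and in 5 of the 6 eIF3 genes. At ribosomal protein genes the median run was 11 nt in control and 10 nt in Rnmt cKO. The share of C and T in the 15 nt centred on the first base of the region ranged from 60 to 100% over the 12 start regions, with 100% at Eif3h in both lists and 60% at Eif3k in control. All 5'UTR regions had a median of 73.3% in both lists. The 6 genes were chosen under the name TOP start with earlier results of these data known. Their run lengths and shares of C and T are therefore a description and not a result about them.

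Away from the start, 5 regions were listed in each genotype, all of a single site except 1 in Rnmt cKO. They ranked lower than the start region of their own gene in every case. Their top percent ran from 24.9 to 65.6% in control (median 52.4%) and from 35.6 to 93.4% in Rnmt cKO (median 70.0%). The start region held a median of 92.7% and 99.9% of the gene's summed exonic score. This share is 100% by definition for a gene with no other exonic region. Such genes were Eif3e and Eif3l in control, and Eif3a, Eif3k and Eif3l in Rnmt cKO. Eif3h had the only regions away from the start that recurred. Its CDS site in exon 5, chr15:51796480, scored 24.1 in control (top 24.9%) and 13.7 in Rnmt cKO (top 39.8%), and its CDS site in exon 7, chr15:51788011, scored 7.36 (top 52.4%) and 2.43 (top 74.5%). The exon 5 site is shown as a contrast to the starts, over chr15:51796465-51796494 on the minus strand with the same marking.
Eif3h, exon 5: gtgccgattgtaaTTaaaaactcacatctg
Its run is 2 nt long and its 15 nt window held 46.7% C and T, and the exon 7 window held 26.7%, the lowest of the 22 regions.

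The remaining sites within these genes appeared in 1 list each. Eif3e had 2 CDS regions in Rnmt cKO only. The region in exon 4 of 13, chr15:43272299-43272301, had 3 sites and a score of 16.8 (top 35.6%), and the one in exon 10, chr15:43261157, a score of 3.05 (top 70.0%). Eif3f had a CDS site at chr7:108934795 in control (score 7.69, top 52.0%) and another at chr7:108937786 in Rnmt cKO (score 0.500, top 93.4%). Eif3k had a control site in a retained-intron transcript at chr7:28974670 (score 4.27, top 64.5%) and Eif3a a control site in the 3'UTR at chr19:60761626 (score 3.86, top 65.6%). Shared regions were 8 of 11 in each list, made up of the 6 starts and the 2 Eif3h sites, where 54.4% of all exonic regions were shared in control and 33.0% in Rnmt cKO. In CDS, 2 of 3 control regions and 2 of 5 Rnmt cKO regions were shared, and 63.8% and 30.6% of all CDS regions were. Intronic sites, which the exon rule left out, were 1 in each list for Eif3a and none for the other 5 genes.

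**Figure D3:**
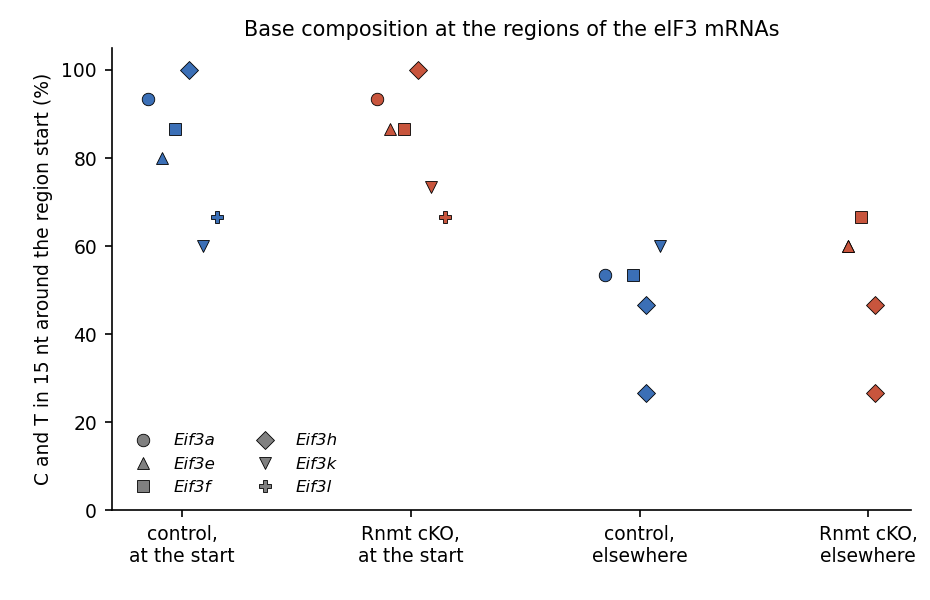
Share of C and T in the 15 nt around the first base of regions of the 6 eIF3 mRNAs, split by list and by whether the region lay within 50 nt of an annotated start. Each symbol is 1 region, with a symbol shape per gene. Start regions reach from 60 to 100%, regions elsewhere from 26.7 to 66.7%.

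Of the 8 other eIF3 genes, Eif3i and Eif3m had exonic regions, both at the 5' end and in both lists, and the other 6 (Eif3b, Eif3c, Eif3d, Eif3g, Eif3j1 and Eif3j2) had none in exons or introns. Eif3i is a WD-repeat subunit outside the PCI and MPN core. Its region scored 171 in control (rank 203, top 6.37%) and 70.2 in Rnmt cKO (rank 315, top 13.3%), with the peak at chr4:129600616 in both lists, in an 11 nt run. Eif3m is a PCI subunit. Its region began 1 nt after the start of the coding transcript Eif3m-202 in control and scored 51.9 (rank 437, top 13.7%), and it scored 124 in Rnmt cKO (rank 202, top 8.53%), again in an 11 nt run. The gene Ccdc73 lies on the opposite strand there. Eif3i and Eif3m each had an annotated TOP start by the definition used for the 6 genes. It lay in the coding transcript Eif3m-202, which opens with 7 pyrimidines, and in the retained-intron transcript Eif3i-204, which opens with 6. With both added, 7 of the 8 PCI and MPN genes had a start region, all but Eif3c, and 1 of the 6 genes outside this core. Among all protein-coding genes, 1.00% had a region within 50 nt of a start in both lists. As 6 of the 7 were chosen with earlier results of these data known, the contrast is a description and not a result about the core. For the genes without a region, binding was not detectable at the depth of these lists, which is unknown, and after alignments of low mapping quality had been dropped.

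Other initiation factors gave a further comparison from a list drawn from general knowledge. Of 18 genes, 5 had an exonic region in control (Eif2s3x, Eif4a1, Eif4a2, Eif4b and Pabpc1) and 8 in Rnmt cKO, where Eif1, Eif1ax and Eif4g2 were added. A 5'UTR region was listed for 4 and 6 of them. Those with a region near a start, 3 in control and 4 in Rnmt cKO, had a median top percent of 8.72% and 10.8%. Their ranges were 5.61 to 9.60% and 6.25 to 65.0%. The eIF3 median of 11.8% in control lay outside that range, and the 10.7% in Rnmt cKO inside it. Of 87 ribosomal protein genes, 79 and 81 had an exonic region. The 3 genes outside eIF3 whose highest 5'UTR region lay nearest to the eIF3 median in both lists, among 229 with such a region in each, were Atp5j2, a subunit of mitochondrial ATP synthase (top 11.6% and 11.5%), Mrpl52, a protein of the mitochondrial ribosome (10.3% and 9.97%), and Igbp1, a partner of protein phosphatase catalytic subunits (13.2% and 9.84%).

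Across each list as a whole, the control list had 826 exonic regions and 4018 sites and the Rnmt cKO list 1364 and 4518. Exonic regions were listed for the T cell genes Cd3d and Cd4 of 6 T cell markers in both genotypes, and for none of 3 B cell and 3 myeloid markers. Only 2.61% of protein-coding genes in control and 3.20% in Rnmt cKO had one, so these absences say little about which cells were present. No region overlapped Rnmt in either list, so the deletion could not be checked from these data.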

How the data were processed

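LARP1 eCLIP regions from naive CD4 T cells were used, 1 LARP1 IP library per genotype. As described by the authors, barcodes were extracted with umi_tools, adapters trimmed with cutadapt, reads aligned to mm10 (GRCm38) with STAR 2.5.2b, PCR duplicates removed by barcode and alignments of low mapping quality dropped. The authors called regions with PureCLIP against the genotype's own size-matched input. Their later selection by read ratio to input and IgG had not been applied to the deposited lists. The deposited values are a score per crosslink site, a log posterior ratio, and a region score, their sum, unscaled between libraries. Duplicate removal makes read starts close to molecules, and the mapping filter thins near-identical copies.

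Regions outside chromosome Y were assigned to exons of GENCODE M21 with 5'UTR taking precedence over CDS, then 3'UTR, then non-coding exon (Python 3.11.15). Site scores of minus-strand regions were read 5' to 3', because the peaks of 118 of 176 shared regions then coincided, against 61 in the other direction. Sites were placed base by base where their number equalled the region width, otherwise only the first and last. Wilson intervals cover counting error only. The code was tested on simulated regions. The 6 genes and all gene lists were chosen with earlier results of these data known. Named were the 6 genes, other eIF3 genes with an exonic region and the 3 genes nearest in rank. Alternatives were site and score minimums, equally long lists, other rankings, basic transcripts, gene bodies and other distances. Chromosome Y and the preliminary, IgG and input libraries were not analysed here.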

Additional observations from a re-analysis of the deposited data

How the results depend on the processing

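Of 83 alternative values of the main counts and medians, 57 stayed close to the reported value and 26 moved. A minimum of 2 crosslink sites left 3 exonic regions of the eIF3 mRNAs in control and 6 in Rnmt cKO, 3 shared in each list, and in control 3 genes with an exonic region, 3 with one near a start and 2 with one in the 5'UTR, at a median top percent of 24.0%. It also left 3 and 4 other initiation factors. Scores above the list median left 7 regions in each list, a control median of 25.4% and 5 initiation factors in Rnmt cKO. The median top percent was 15.9% in control with equally long lists, 19.2% and 13.7% (control and Rnmt cKO) among exonic regions, 32.8% and 25.9% among 5'UTR regions, 10.2% and 14.5% by score per site, and 11.4% and 12.6% by the highest site. The median thus ranked higher in control under the last 2 rankings. It ranked higher in Rnmt cKO in the reported one, with equally long lists, and among exonic or 5'UTR regions. The same held with the site and score minimums, which left unlike sets of genes in the lists. A 7 nt window held a median of 100% C and T at the starts in both lists, and annotated TOP starts were 4 with a C within 5 nt and 1 with basic transcripts only. The stretches that added Eif3e and Eif3k to the 4 were not their crosslinked runs. With basic transcripts 4 of the 6 genes had a region near a start in each list, without Eif3a and Eif3l. Per gene, 64 of 89 values moved, and the order of the lists turned with the ranking for Eif3e, Eif3h and Eif3f. Eif3e, Eif3h and Eif3f stayed the highest 3 in every ranking that held them, in changing order. No paired analysis was possible because only 1 LARP1 IP library represented a genotype, and no replicate could be left out. Depth is unknown from the lists, so a gene without a region may be bound below detection.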
